A study of Mus musculus with 6 samples.

Results

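Complex I of the respiratory chain takes electrons from NADH, passes them along a row of iron-sulfur clusters to ubiquinone and pumps protons across the inner mitochondrial membrane. Its hydrophilic peripheral arm carries the NADH site and the iron-sulfur clusters, its membrane arm pumps the protons, and both arms are wrapped in accessory subunits that take no direct part in electron transfer. Assembly factors join the modules of the complex and are not part of the finished enzyme. In skeletal muscle, slow and oxidative fibers hold more mitochondria than fast glycolytic fibers.

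The genes described here are those whose symbol in the platform annotation starts with Nduf and which have a probe not flagged near background on at least 3 of 6 arrays. The annotation held 39 such genes on probes of 1 symbol, and 38 of them, with 42 probes, met this filter, out of 14732 genes tested in all. Ndufaf8 was near background on all 6 arrays and was not tested. By role, 6 of the 38 genes encode core subunits, 8 encode accessory subunits of the peripheral arm, 8 of the proximal and 8 of the distal membrane arm, and 6 encode assembly factors. The last 2 are Ndufa4l2 and Ndufs5-ps. Ndufa4l2 is a relative of Ndufa4 that is not held to be a complex I subunit. Ndufs5-ps carries the name of a pseudogene of Ndufs5, and its probe may read Ndufs5 itself. Ndufb10 was named only through the RefSeq accession of its probe, so it lies outside the rule and is given beside it. The core subunits encoded by mitochondrial DNA were not analysed here. A further 4 probes carry an Nduf symbol together with that of another gene and were left unnamed.

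Muscle RNA of 3 Rpt3 null and 3 control samples from female mice at 6 weeks of age was hybridized to CodeLink bioarrays, 1 sample per array. The labels number the samples without saying that each came from a separate mouse, so the p-values measure the spread between these samples. The labels give the tibialis anterior as the tissue, whereas the paper names the gastrocnemius, and the muscle is therefore not settled. Rpt3 (Psmc4) encodes an ATPase of the proteasome cap. In the Rpt3 null mice floxed Rpt3 was removed by mlc1f-Cre, a Cre driven by the promoter of a fast myosin light chain and active in fast-twitch fibers. Removal in slow-twitch fibers and in other cells of the muscle was not measured on these arrays. The labels give both groups the strain mlc1f-Cre/ Rpt3-floxed, and the paper gives the controls as carrying mlc1f-Cre with both Rpt3 alleles wild type.

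Values are log2 intensities after background correction and quantile normalization, a step that gives all arrays the same distribution of intensities. Psmc4 was 10.01, 9.78 and 9.85 on the Rpt3 null arrays, against 11.16, 10.91 and 11.06 on the control arrays. It was lower on each Rpt3 null array, although the sources used here do not place its probe relative to the deleted part. Between 57.0% and 74.5% of transcript probes were above background on an array, and the lowest share was on control 2. Of the markers of slow fibers, 6 of 8 tested genes were called higher in Rpt3 null muscle at an adjusted p under 0.05 from limma, and of those of macrophages 9 of 12, where 12.7% of all tested genes were called higher. Of the fibroblast markers 2 of 6 were called higher and of the adipocyte markers 2 of 3, and none of these 4 lists held a gene called lower. The summed intensity of the macrophage markers ranged over 8314 to 12236 in Rpt3 null and 3109 to 3564 in control muscle. The summed intensity of the slow fiber markers ranged over 22565 to 23510 in Rpt3 null and 14486 to 17840 in control muscle, and that of the fast fiber markers over 188803 to 191613 in Rpt3 null and 210787 to 223153 in control muscle. The fibroblast markers summed to 26266 to 28000 in Rpt3 null and 17995 to 21165 in control muscle, and the adipocyte markers to 2424 to 2827 in Rpt3 null and 1838 to 2179 in control muscle. The skeletal muscle markers were bright, with a median mean log2 intensity of 14.06 over 7 tested genes, of which myoglobin (Mb) was called lower and none higher. The fast fiber genes Casq1, Myl1 and Actn3 were lower and Myh1 was higher, among 11 tested. The part of these shifts in the values of the complex I genes was not tested, and in whole muscle fewer cells of a type and less RNA per cell cannot be told apart.

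Most of the 38 genes did not pass the test, and those that did were lower in Rpt3 null muscle. With quantile normalization 5 of the 38 genes (13.2%) were called lower, where 6.56% of all tested genes were. A call means that limma, a linear model fitted over all tested genes, gave an adjusted p under 0.05. The genes called lower were Ndufs1, Ndufaf5, Ndufab1, Ndufa4l2 and Ndufc1. Of the 30 subunit genes 3 were thus called lower, since Ndufaf5 is an assembly factor and Ndufa4l2 is not held to be a subunit. No gene was called higher, where 12.7% of all tested genes were, so 5 of the 38 were called in either direction, where 19.3% of all tested genes were. At an unadjusted p under 0.05 from limma, 4 of the 38 were higher and 6 were lower, where 19.2% of all tested genes were higher and 12.9% were lower. Log2 fold changes of Rpt3 null over control had a median of -0.11 over the 38 genes, with 28 below 0, and -0.01 over all tested genes. In 9 genes the Rpt3 null arrays all lay below the control arrays, as in 15.6% of all tested genes, and in 3 genes they all lay above, as in 21.2% of all tested genes.

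**Figure D1:**
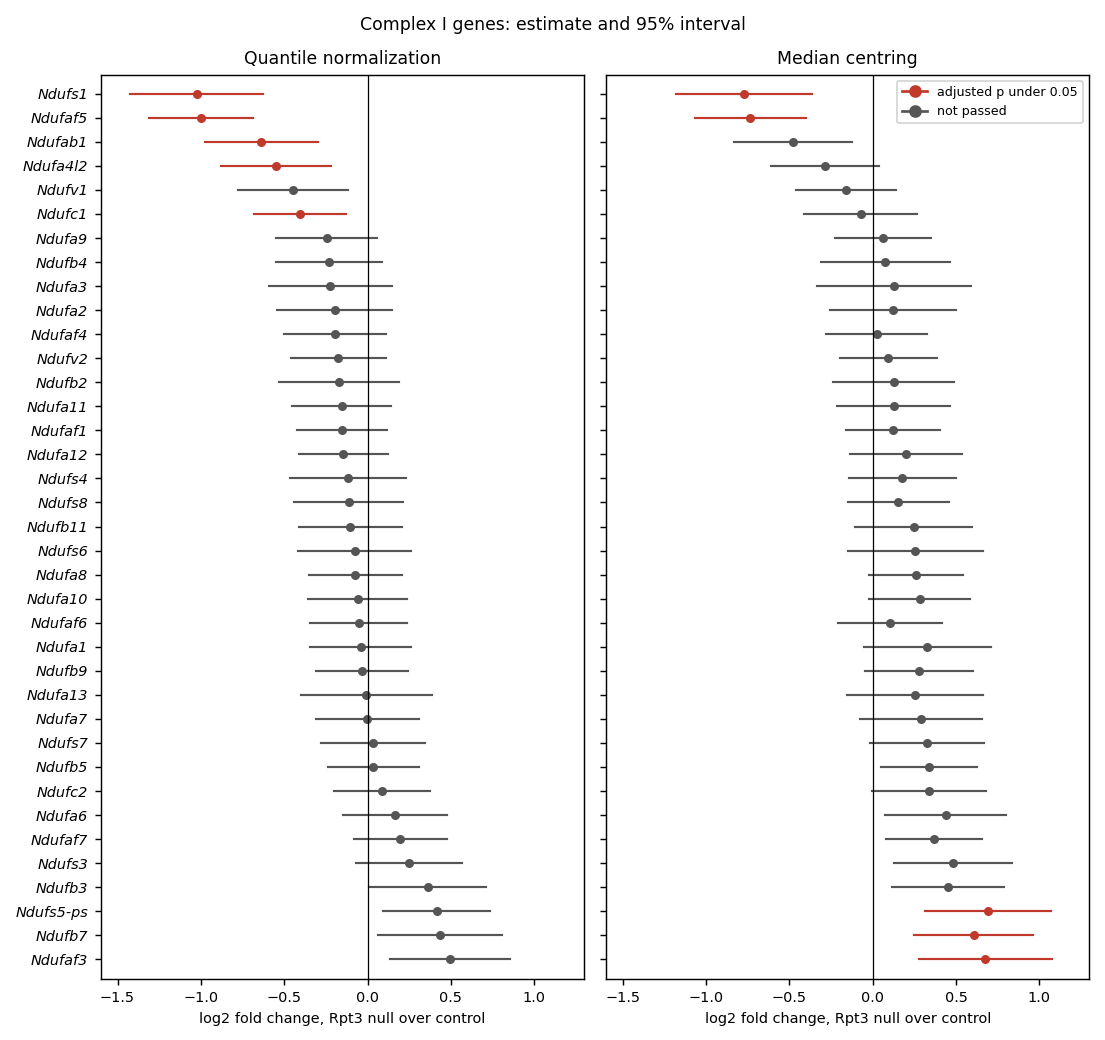
Log2 fold change (Rpt3 null over control) of each complex I gene with its 95% interval, after quantile normalization (left) and after median centring (right), without Ndufa5, whose interval is far wider than the axis. Red marks an adjusted p under 0.05: 5 genes on the left, all below 0, and 5 on the right, of which 3 are above 0.

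In the core, the fall was steepest in Ndufs1, which encodes the largest iron-sulfur subunit, which passes electrons on from the NADH site. Ndufs1 was 9.91, 10.35 and 10.41 on the Rpt3 null arrays, against 10.96, 11.40 and 11.38 on the control arrays. All Rpt3 null values lay below all control values, and the mean was 2.04-fold lower (log2 fold change -1.03 ± 0.18, SE; adjusted p = 0.00324 from limma). The call held when any 1 of the 6 arrays was left out.

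Ndufv1, which carries the NADH and flavin site, was 11.14, 11.58 and 11.42 on the Rpt3 null arrays, against 11.91, 11.68 and 11.90 on the control arrays. Although its groups did not overlap, its change of -0.45 ± 0.15 (SE) on the log2 scale did not pass (limma, adjusted p = 0.0609). Its partner at the NADH site, Ndufv2, was 12.82, 13.09 and 12.85 on the Rpt3 null arrays, against 13.09, 13.08 and 13.11 on the control arrays, and overlapped through Rpt3 null 2. The 3 other core subunits of the 6 line the path of the electrons to ubiquinone, and in each of them the groups overlapped and the test was not passed. Ndufs8 was 11.33, 11.62 and 11.54 in Rpt3 null and 11.83, 11.54 and 11.45 in control muscle. Ndufs7 was 12.08, 11.84 and 11.76 in Rpt3 null and 12.03, 11.76 and 11.79 in control muscle. Ndufs3 was 10.03, 10.10 and 10.42 in Rpt3 null and 9.84, 10.04 and 9.91 in control muscle. The core thus held log2 fold changes between -1.03 and 0.25, with the 95% interval of Ndufs1 (-1.42 to -0.63) lying wholly below that of Ndufs3 (-0.07 to 0.57).

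**Figure D2:**
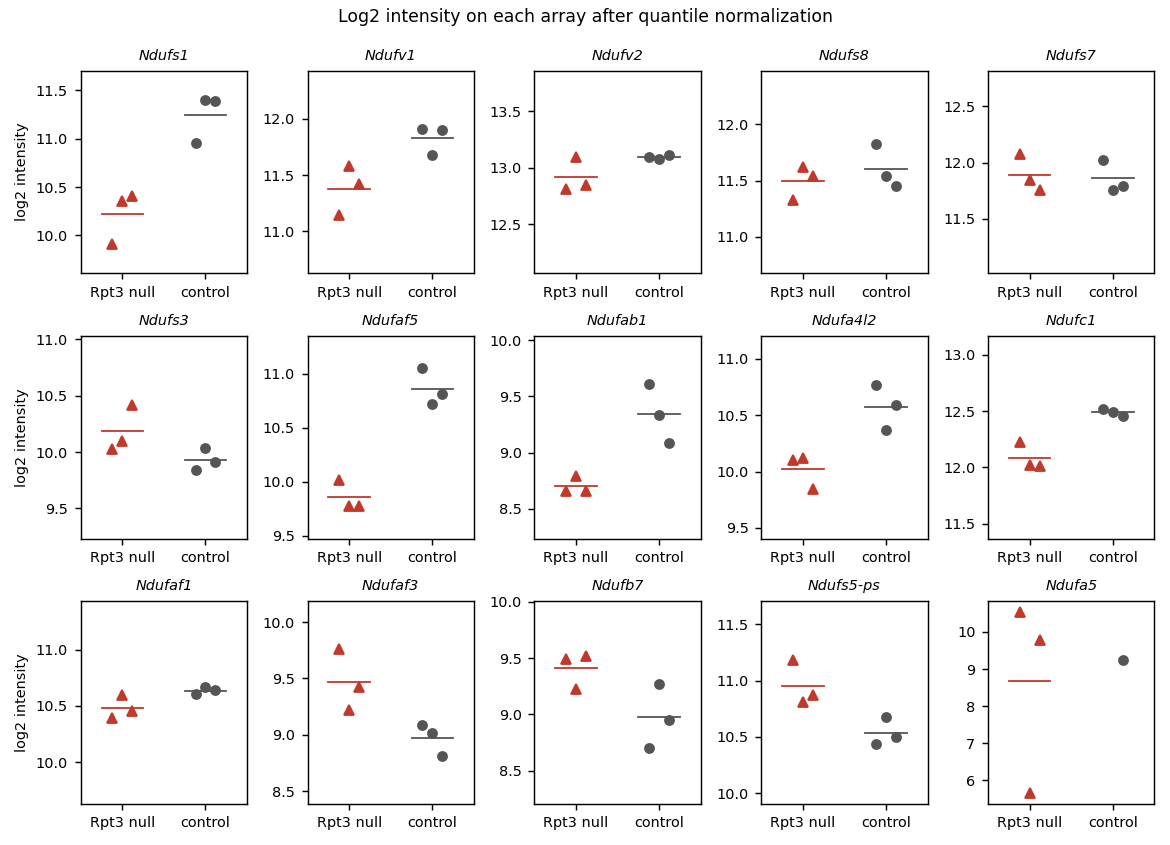
Log2 intensity (vertical axes, each gene on its own range) on every array for the 6 core subunits and for the other genes described one by one. Triangles are Rpt3 null arrays, circles control arrays and lines the group means; in Ndufs1 and Ndufaf5 the groups lie about 1 unit apart, and Ndufa5 has 1 usable control spot.

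Among the assembly factors, Ndufaf5 fell about as far as Ndufs1. It encodes an enzyme that hydroxylates an arginine of the core subunit Ndufs7 early in assembly. Ndufaf5 was 10.02, 9.78 and 9.78 on the Rpt3 null arrays, against 11.05, 10.72 and 10.81 on the control arrays, and the groups lay apart. The mean was 2.0-fold lower (log2 fold change -1.0 ± 0.14, SE; adjusted p = 0.00103 from limma), and the call held when any 1 of the 6 arrays was left out. Ndufaf3, which acts with Ndufaf4 on an early intermediate, had higher values in Rpt3 null muscle but did not pass. It was 9.76, 9.22 and 9.43 on the Rpt3 null arrays, against 9.09, 9.01 and 8.81 on the control arrays (log2 fold change 0.50 ± 0.16, SE; adjusted p = 0.0572 from limma). Ndufaf1, Ndufaf4, Ndufaf6 and Ndufaf7, an arginine methyltransferase, had log2 fold changes between -0.20 and 0.20, and none passed. Of 12 further assembly factors whose symbols do not start with Nduf, 1 was higher and 2 were lower, where 12.7% of all tested genes were higher and 6.56% were lower. Lyrm2 was higher (log2 fold change 0.79, adjusted p = 0.00756 from limma). Acad9, a factor of the same intermediate as Ndufaf1, and Tmem70, which also serves ATP synthase, were lower, at -0.67 and -0.56 on the log2 scale (limma, adjusted p = 0.0287 and 0.00831). After median centring neither passed (limma, adjusted p = 0.054 and 0.163). With that scaling 2 of the 12 were higher and 0 lower, where 17.3% of all tested genes were higher and 4.09% were lower.

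The promoter windows of the assembly factors and subunits were searched for the NRF-1 motif (GCGCA, 1 base of any kind, GCGC) on both strands, NRF-1 being a transcription factor known to bind promoters of respiratory chain genes. Of 32 genes with a RefSeq window (GRCm38.p6, 250 bases before to 50 after the start), 8 held it in at least 1 window (25%). Of all 32851 windows, counted singly and not by gene, 4.6% held it, so the 2 shares are not in the same unit. Among the 8 genes, 3 share the same 10 letters and are shown with the motif in capitals. Of these, 1 was called lower and the other 2 were not, with log2 fold changes of -1.0, -0.20 and -0.15 in the order given.
Ndufaf5: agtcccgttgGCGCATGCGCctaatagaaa
Ndufaf4: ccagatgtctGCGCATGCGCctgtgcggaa
Ndufa11: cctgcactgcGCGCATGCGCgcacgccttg
The stretches, 5′ to 3′ on the strand of the gene, lie at chr2:140170652-140170681, chr4:24897960-24897989 and chr17:56717692-56717721, each on the plus strand. Counted from the annotated start of the gene, the first base of the motif lies at position 17 in Ndufaf5, -113 in Ndufaf4 and -60 in Ndufa11. Ndufs1 and Ndufa4l2 were among 6 genes for which no window was used here, and of the 3 genes called lower that had one, only Ndufaf5 held the motif.

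Of the accessory subunits, 2 were called. Each is listed here under 1 arm only. Of the 8 genes listed under the peripheral arm none passed. Ndufa9, which sits near the ubiquinone site, and Ndufa12 had Rpt3 null arrays all below the control arrays at log2 fold changes of -0.25 and -0.14. Ndufa2, Ndufa6, Ndufa7, Ndufs4 and Ndufs6 overlapped, with log2 fold changes between -0.20 and 0.16. Ndufa5 could not be judged, since its spots on control 1 and control 2 were masked or contaminated and were left out of the fit. It was 10.54, 5.66 and 9.79 on the Rpt3 null arrays, against 9.25 on control 3, with Rpt3 null 2 near background, and its SE was 1.53. In the proximal membrane arm, Ndufc1 was 12.22, 12.02 and 12.01 on the Rpt3 null arrays, against 12.52, 12.49 and 12.46 on the control arrays. The difference was small and the groups lay apart (log2 fold change -0.41 ± 0.12, SE; adjusted p = 0.0447 from limma). The call was lost on leaving out any 1 of the 6 arrays, with adjusted p between 0.0559 and 0.151 from limma. Ndufa1, Ndufa3, Ndufa8, Ndufa10, Ndufa11, Ndufa13 and Ndufc2 did not pass, at log2 fold changes between -0.22 and 0.09.

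Among the genes listed under the distal membrane arm, Ndufab1 was the one gene called. It encodes the mitochondrial acyl carrier protein, which also serves fatty acid synthesis in the matrix. Ndufab1 was 8.66, 8.79 and 8.66 on the Rpt3 null arrays, against 9.61, 9.33 and 9.08 on the control arrays. The groups lay apart (log2 fold change -0.64 ± 0.15, SE; adjusted p = 0.0159 from limma), and a second, dimmer probe read -0.77 on the log2 scale (limma over all probes, adjusted p = 0.013). The call on the brighter probe was lost without Rpt3 null 1 or Rpt3 null 3, with adjusted p of 0.0700 and 0.0663 from limma. Ndufb7, which lies on the intermembrane space side, was 9.49, 9.22 and 9.52 on the Rpt3 null arrays, against 8.70, 9.27 and 8.95 on the control arrays, and did not pass (adjusted p = 0.101 from limma). Ndufb3 had a log2 fold change of 0.36 and did not pass either. Ndufb2, Ndufb4, Ndufb5, Ndufb9 and Ndufb11 lay between -0.23 and 0.04, and Ndufb10, outside the rule, was at -0.07. Ndufb4 has near-identical copies in the mouse genome, so its probe may read more than 1 gene.

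Of the 2 genes not counted as subunits or assembly factors, 1 was called lower. Ndufa4l2, known as a hypoxia-induced gene, was 10.10, 10.12 and 9.84 on the Rpt3 null arrays, against 10.77, 10.36 and 10.59 on the control arrays (log2 fold change -0.55 ± 0.15, SE; adjusted p = 0.026 from limma). Its call was lost without any 1 of the Rpt3 null arrays or without control 3, with adjusted p between 0.0534 and 0.113 from limma. Ndufs5-ps was 11.18, 10.81 and 10.87 on the Rpt3 null arrays, against 10.43, 10.68 and 10.50 on the control arrays. The groups lay apart but the test was not passed (adjusted p = 0.0721 from limma). The probe may read the subunit gene Ndufs5 instead of a pseudogene or together with it, which the sources used here do not settle.

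For the 32 uncalled genes other than Ndufa5, log2 fold changes lay between -0.45 and 0.50, and 26 of them had a 95% interval wholly within 1.5-fold in either direction. The half-width of the interval was 0.27 to 0.40 on the log2 scale over the genes other than Ndufa5. Of the 4 genes with a second probe past the filter, Ndufa12 and Ndufaf7 had probes of opposite sign. Their second probes gave log2 fold changes of 0.24 and -0.12, neither passing, and the second probe of Ndufs3 gave 0.33.

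The direction of the group as a whole depended on how the arrays were brought to a common scale. Median centring, which shifts each array to the same median and leaves its spread as measured, moved 3 genes to a higher call and left 2 lower. The median over the 38 genes was then 0.19, with 31 above 0, against 0.05 over all tested genes. The 3 genes called higher were 7.89% of the 38, where 17.3% of all tested genes were called higher, and the 2 called lower were 5.26%, where 4.09% were, so that again 5 genes were called in either direction, where 21.4% of all tested genes were. Of the 30 subunit genes 1 was then called higher and 1 lower. In 12 of the 38 genes the Rpt3 null arrays then all lay above the control arrays and in 3 they all lay below, as did 26.7% and 9.86% of all tested genes.

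Ndufs1 and Ndufaf5 were called lower under both scalings, at -0.77 and -0.73 on the log2 scale after median centring (limma, adjusted p = 0.0116 and 0.00481). Ndufab1, Ndufa4l2 and Ndufc1 were called lower with quantile normalization only. After median centring Ndufab1 was 8.73, 8.81 and 8.76 in Rpt3 null and 9.56, 9.17 and 8.99 in control muscle, still without overlap (adjusted p = 0.0567 from limma). Ndufa4l2 was 10.28, 10.09 and 10.02 in Rpt3 null and 10.60, 10.23 and 10.43 in control muscle, and the groups overlapped. Ndufc1 was 12.50, 12.02 and 12.24 in Rpt3 null and 12.25, 12.45 and 12.27 in control muscle, and its log2 fold change of -0.07 was near 0.

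Ndufaf3, Ndufb7 and Ndufs5-ps were called higher after median centring only. Ndufaf3 was 9.91, 9.23 and 9.59 in Rpt3 null and 9.11, 8.85 and 8.75 in control muscle (log2 fold change 0.68, adjusted p = 0.0205 from limma). Ndufb7 was 9.61, 9.24 and 9.68 in Rpt3 null and 8.73, 9.11 and 8.87 in control muscle (log2 fold change 0.60, adjusted p = 0.0211 from limma). In each of them the Rpt3 null arrays lay above all control arrays. Ndufs5-ps was 11.41, 10.79 and 11.09 in Rpt3 null and 10.30, 10.57 and 10.36 in control muscle (log2 fold change 0.69, adjusted p = 0.0132 from limma). In Ndufaf1 the order of the groups turned over completely. Its values were 10.39, 10.60 and 10.45 in Rpt3 null and 10.60, 10.67 and 10.64 in control muscle with quantile normalization, and 10.58, 10.59 and 10.67 in Rpt3 null and 10.44, 10.55 and 10.49 in control muscle after median centring. Neither difference passed.

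Complex I genes were bright, with a median mean intensity of 11.34 on the log2 scale against 7.96 over all tested genes, and 30 of the 38 were at 10 or more. Before normalization between arrays, the bright end of the intensity distribution was stretched further on the Rpt3 null arrays. The 99th percentile lay 4.96, 4.72 and 4.96 above the median on the Rpt3 null arrays, against 4.49, 4.68 and 4.56 on the control arrays. After median centring the log2 fold change over all tested genes had a median of -0.01 for intensities under 8, 0.24 for 10 to 11, 0.33 for 12 to 13 and -0.04 for 13 and over, a band of 51 genes, whereas with quantile normalization it lay between -0.08 and -0.0049 in every band. The complex I genes had medians of 0.12 and 0.25 in the bands from 10 to 11 and from 12 to 13 after median centring, and the 2 complex I genes at 13 or more had 0.17. The change of scaling added between 0.09 and 0.37 to each complex I gene, with a median of 0.28, and 0.07 to the median gene of the array. Which scaling lies nearer to the amounts of RNA was not tested.

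**Figure D3:**
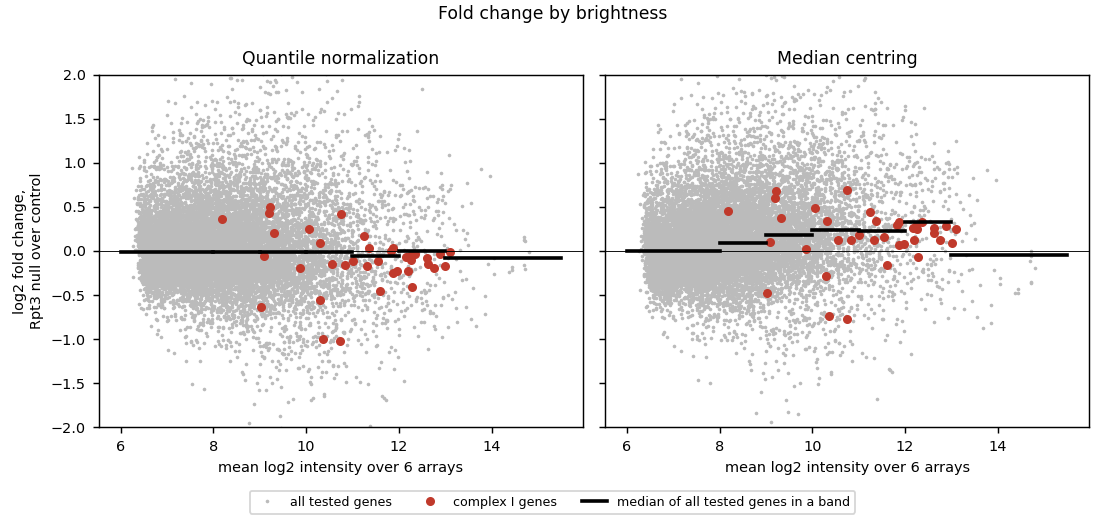
Log2 fold change (Rpt3 null over control) against mean log2 intensity over 6 arrays for all tested genes (grey), the complex I genes (red) and the median of all tested genes in bands of intensity (black), with quantile normalization (left) and median centring (right); genes beyond 2 on the vertical axis are not drawn. On the right the black bars reach 0.33 between 12 and 13, where 10 complex I genes lie, and -0.04 above 13.

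Arrays of 1 group also differed among themselves. With quantile normalization, Rpt3 null 1 had the lowest value of the 3 Rpt3 null arrays for 5 of the 6 core subunits, and the highest for 16 of the 23 accessory subunits other than Ndufa5. Over all tested genes Rpt3 null 1 was lowest for 35.2% and highest for 31.5%. The median deviation from the mean of each gene on Rpt3 null 1 was -0.21 for the core and 0.12 for the accessory subunits. After median centring these medians were 0.04 for the core, so its sign turned, and 0.37 for the accessory subunits. The core was then lowest on Rpt3 null 1 for 3 of 6 genes, and the accessory subunits were highest there for 19 of 23. Over all tested genes Rpt3 null 1 was then lowest for 30.5% and highest for 33%. The control arrays differed as well with quantile normalization. The accessory subunits were highest on control 1 for 13 of 23 and on control 3 for 0, and lowest on control 3 for 14. Over all tested genes control 1 was highest for 36.9%, and control 3 was highest for 2595 and lowest for 2899 of 14715. These are counts over genes of single arrays and carry no test.

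**Figure D4:**
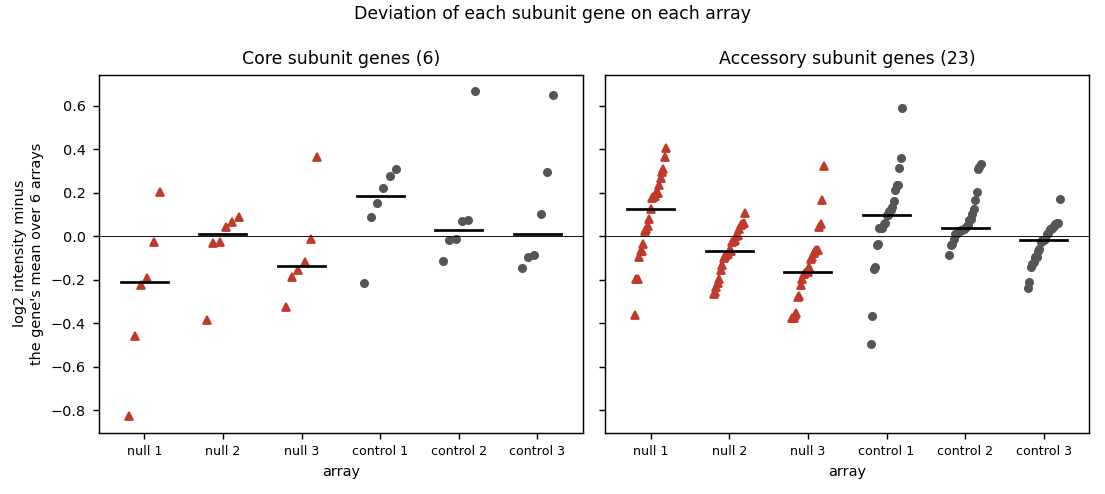
Deviation of each core subunit gene (left, 6 genes) and each accessory subunit gene other than Ndufa5 (right, 23 genes) from its mean over 6 arrays (log2, quantile normalization), by array, with black bars at the median. Rpt3 null 1 has a median of -0.21 on the left and 0.12 on the right.

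The other complexes of the chain are given for comparison. With quantile normalization, 8 of 64 tested genes of complexes II to V were higher and 8 were lower, with a median of -0.06, where 12.7% of all tested genes were higher and 6.56% were lower. After median centring 13 were higher and 2 were lower, where 17.3% and 4.09% of all tested genes were. The counts of higher genes were thus near those shares. In complex II, 2 of 6 genes were lower, namely the catalytic subunit Sdha (log2 fold change -0.55) and the membrane anchor Sdhd (-0.52). In complex III and its electron carrier, 2 of 14 were lower, cytochrome c (Cycs, -0.64) and the assembly factor Uqcc1 (-0.45). In complex IV, 6 of 24 were higher, led by the assembly factor Surf1 (1.36), the subunit Cox8a (1.14) and the assembly factor Cox16 (0.86), and 2 were lower, the muscle isoforms Cox7a1 (-0.79) and Cox6a2 (-0.68). In complex V, the ATP synthase, 2 of 20 were higher and 2 were lower. The inhibitor Atpif1 was at 1.49, and the subunits Atp5b and Atp5a1 were at -0.95 and -0.73. After median centring Atp5b and Atp5a1 were still called lower (limma, adjusted p = 0.0238 and 0.0482). Sdha, Sdhd, Cycs, Uqcc1, Cox7a1 and Cox6a2 then did not pass, with adjusted p between 0.0844 and 0.347 from limma. Surf1, Cox8a, Cox16 and Atpif1 were called higher under both scalings. With quantile normalization complex I thus had no gene called higher and complex IV had 6, a contrast between lists that was not tested. Of 16 genes that mark mitochondrial content, 4 were higher and 5 were lower, where 12.7% of all tested genes were higher and 6.56% were lower, with citrate synthase (Cs) at -1.15 and the chaperonin Hspd1 at -0.87. Hspe1, the partner of Hspd1, was among those called higher but was not above background on any control array, so no fold is given for it. After median centring 5 were higher and 1, Cs, was lower, where 17.3% and 4.09% of all tested genes were, and the median of the list was 0.06, against -0.13 with quantile normalization. Of 15 regulators of mitochondrial biogenesis, Esrrg (0.85) was higher and Ppara (-0.66) was lower.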

How the data were processed

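The sources are the 6 scanner reports and the value table of the series. The authors scanned the arrays with CodeLink Expression Analysis 5.0.0.31312, and the deposited reports hold a spot intensity, a local background intensity and a quality flag, with no normalization between arrays. The value table the authors deposited also holds intensities. They were set against the background-subtracted intensities of the scanner reports. The correlation was at least 0.997 with the own array and at most 0.948 with another. The median of the value table was 89.03 on every array, and the kind of normalization between arrays was not tested. The value table served as an alternative.

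Background was corrected with normexp (offset 50) in limma 3.58.1 (R 4.3.3), arrays were then quantile normalized without the 1260 control spots, and lmFit and eBayes were run on log2 intensities without covariates. Masked, contaminated and outlier spots were left out. Genes with a probe above background on 3 of 6 arrays were tested, the brightest probe standing for the gene, and p-values were adjusted by Benjamini-Hochberg over 14732 genes and called under 0.05. Symbols came from the platform annotation, updated by gene number, and otherwise from the probe's RefSeq accession. Promoter windows came from RefSeq (GRCm38.p6). Figures were drawn with Python 3.11.15 and matplotlib 3.10.9.

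Values on each array are given for core subunits, called genes, genes whose call differs between scalings and Ndufa4l2, and every other gene is named, except that some results are not reported here. From each comparison list up to 3 called genes with the largest change are named, and Cox7a1, Cox6a2 and Actn3 were added after their values were seen. The members and gene lists were chosen with earlier results of these data known. Alternatives were other scalings, background corrections, filters, probe rules, models of the variance, the methods' test, the replicate number as a block and leave-outs of single arrays. Each slide held 1 array, so no slide block was possible. The number of arrays limits the precision. The steps were tested on simulated data.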

Additional observations from a re-analysis of the deposited data

Results flagged for a closer look

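The positive control spots, which read transcripts added to the samples and are outside the comparison of muscle genes, differed between the groups. Over 300 such spots the mean log2 intensity after background correction and before normalization was 8.58, 8.65 and 8.68 on the Rpt3 null arrays, against 8.47, 7.76 and 8.16 on the control arrays, so that the Rpt3 null mean was higher by 0.507. The transcript probes differed by 0.153 in the same direction, and the 640 fiducial and 320 negative control spots by -0.003 and -0.002. The sources used here do not give the amounts added, and a link to the complex I values was not tested.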

How the results depend on the processing

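Of 853 values of single complex I genes under other settings, 800 kept their call or stayed uncalled. An uncalled gene counted as unchanged whatever its sign, as with Ndufa1, whose log2 fold changes ran from -0.15 to 0.53. A further 32 lost the call, 20 gained it and 1 reversed, Ndufc1 at 0.13 with median centring and equal Gapdh. Ndufs1 lost its call in that setting and in the methods' test after adjustment, and Ndufaf5 in that setting only. The causes were not tested.

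Against 0 genes higher, 5 lower and a median of -0.11, median centring gave 3 higher, 2 lower and a median of 0.19, and median centring together with equal Gapdh gave 5 higher, 0 lower and 0.39. With that pair of choices 2716 of all 14732 tested genes were called higher and 160 lower, and their median was 0.25. A floor of 1 after background subtraction gave 3 lower, where 709 of all 14732 tested genes were lower. Array weights gave 3 lower, where 667 of all 14732 were. The value table gave a median of 0.048, and a filter of all 6 arrays gave 1 higher, where 1694 of 12153 tested genes were. The methods' test without adjustment gave 2 higher and 7 lower, where 2502 and 1636 of all 14730 tested genes were. After adjustment it gave 2 lower, where 427 of all 14730 were. Leaving out 1 array gave 0 to 2 higher, 2 to 5 lower and medians of -0.15 to -0.06. There were 2 lower without Rpt3 null 1 or Rpt3 null 3, 3 without Rpt3 null 2 or control 3, and 2 higher without control 2. There was 1 higher without Rpt3 null 2 or without control 1.

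Above background on all 6 arrays were 37 of the 38 genes. Settings chosen after seeing the data were quantile normalization over transcript and control spots (median 0.032) and equal positive control spots (0 higher, 6 lower, median -0.19, with all genes at -0.33).

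Same-numbered arrays correlated at 0.126, -0.438 and 0.0987 in their deviations and were not treated as pairs. With the number as a replicate block 0 genes were higher and 4 lower, with a median of -0.09. Of all 14731 tested genes 1723 were then higher and 875 lower.

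Over all tested genes the main fit gave 1870 higher and 967 lower. Median centring gave 2556 higher and 602 lower, and median centring with equal Gapdh 2716 higher and 160 lower, with all genes at 0.25. Equal positive control spots gave 1130 higher and 5410 lower, and the methods' test after adjustment 940 higher and 427 lower. Without 1 array there were 1081 to 2334 higher and 387 to 1418 lower.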
